A study of Homo sapiens with 11 samples.

Results

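The HOX gene clusters are 4 dense groups of homeobox genes, and they were followed here through lists of enriched chromatin intervals from MDA-MB-231 cells with and without mdig. The members were the 38 HOX genes named for the spans of the 4 clusters on the genome build hg19, of 20056 protein-coding genes in the reference gene table. HOXA was taken as chr7:27130000-27250000 (120 kb, 10 member genes), HOXB as chr17:46600000-46810000 (210 kb, 10 genes), HOXC as chr12:54330000-54450000 (120 kb, 9 genes) and HOXD as chr2:176955000-177056000 (101 kb, 9 genes). Of 229591 intervals in the 10 lists on chromosomes 1 to 22 and X, 94 (0.0409%) touched one of these spans.

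MDA-MB-231 is a human triple-negative breast cancer line. Mdig, also named MINA53 or RIOX2, is an oxygenase with a JmjC domain. Per the labels, both the WT cells, with normal mdig protein, and the KO cells, with none, came from CRISPR-Cas9 work and were grown in medium with blasticidin, and the number of clones behind either is not given in the sources used here. ChIP-seq was done with antibodies to H3K4me3, H3K36me3, H3K9me3, H4K20me3 and mdig itself (antibody MINA), with 1 library per antibody and genotype, and 1 input library without a genotype was not used here. There are no replicates and the depth is unknown, so every difference below describes a pair of libraries and none was tested.

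HOX genes encode transcription factors that give positional identity along the body axis. Within each cluster they lie in the order in which they act, low numbers toward the head and high numbers toward the tail, and adult cells tend to keep part of a cluster active. In textbook chromatin H3K4me3 marks active and poised CpG-rich promoters, H3K36me3 builds up over gene bodies as they are transcribed, H3K9me3 and H4K20me3 mark constitutive heterochromatin, and silent HOX genes are held by Polycomb and its mark H3K27me3, for which there was no antibody here. By RefSeq order, positions rise from HOXA2 to HOXA13 and from HOXB1 to HOXB13, and from HOXC13 to the shared start of HOXC4, HOXC5 and HOXC6 and from HOXD13 to HOXD1. With no hg19 annotation in use, an interval is given by its position and by the gene at the nearer end of its cluster, and no gene was assigned to it.

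Most promoter windows found for the members were rich in CpG, the dinucleotide CG, which reads the same on both strands. RefSeq promoter sequences (GRCh38.p14) were found for 20 of the 38 members, 9 of 10 in HOXA, 1 of 10 in HOXB, 2 of 9 in HOXC and 8 of 9 in HOXD. They gave 27 starts, where HOXA3 and HOXA10 have several and HOXC4 and HOXC5 share the same window. In the 250 bases before the start the median CpG count was 19, beside 11 for all 35116 starts of the table. The CpG observed over expected ratio exceeded 0.6 at 21 of 27 starts (77.8%), beside 47.5% of all starts. The only HOXB start, that of HOXB1, held 7 CG at a ratio of 0.343. With HOXC seen through 1 shared window, these values describe mainly HOXA and HOXD. The end genes of HOXA and HOXD are printed because the marks differed between the ends of the clusters. Each is the 250 bases before the start, 5′ to 3′ on the gene's strand, with every CG in capitals, and these GRCh38.p14 positions are not comparable with the hg19 positions of the intervals.
HOXA2 (chr7:27102684-27102933, minus strand): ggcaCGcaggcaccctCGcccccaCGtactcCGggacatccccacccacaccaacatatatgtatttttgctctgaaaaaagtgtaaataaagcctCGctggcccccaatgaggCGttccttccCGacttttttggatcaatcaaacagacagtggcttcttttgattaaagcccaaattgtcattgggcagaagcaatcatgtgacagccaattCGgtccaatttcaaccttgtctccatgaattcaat
HOXA13 (chr7:27200092-27200341, minus strand): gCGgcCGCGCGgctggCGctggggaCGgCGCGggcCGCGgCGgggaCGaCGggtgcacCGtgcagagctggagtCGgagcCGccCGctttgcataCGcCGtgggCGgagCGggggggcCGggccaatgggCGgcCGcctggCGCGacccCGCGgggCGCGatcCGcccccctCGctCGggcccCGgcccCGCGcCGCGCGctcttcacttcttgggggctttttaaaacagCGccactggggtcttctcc
HOXD13 (chr2:176092471-176092720, plus strand): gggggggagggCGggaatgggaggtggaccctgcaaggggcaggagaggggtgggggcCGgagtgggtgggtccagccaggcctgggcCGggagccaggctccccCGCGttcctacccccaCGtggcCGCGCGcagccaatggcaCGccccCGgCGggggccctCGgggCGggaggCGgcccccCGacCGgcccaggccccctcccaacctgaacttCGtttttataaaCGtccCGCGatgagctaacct
HOXD1 (chr2:176188418-176188667, plus strand): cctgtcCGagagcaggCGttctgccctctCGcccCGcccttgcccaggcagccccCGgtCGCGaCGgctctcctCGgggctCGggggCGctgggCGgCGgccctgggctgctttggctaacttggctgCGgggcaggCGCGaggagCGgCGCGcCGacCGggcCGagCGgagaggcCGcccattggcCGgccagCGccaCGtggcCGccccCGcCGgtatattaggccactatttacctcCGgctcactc
The HOXA2 window held 8 CG at a CpG ratio of 0.609. The HOXA13 window held 40 CG at 1.06, the highest count of the 4 printed. The HOXD13 window held 21 CG at 0.618 and the HOXD1 window 31 CG at 0.888.

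Across the 4 clusters the H3K4me3 intervals stood in nearly the same places in both genotypes, H3K9me3 had no interval at all, MINA intervals were far fewer in KO, and H4K20me3 had more intervals in KO. H3K36me3 was listed in HOXB and HOXD only. Of 20 pairs of a cluster and an antibody, 14 had at least 2 kb covered in WT or KO, the minimum set here. In 5 of these the KO covered length was at least 1.5 times longer, H4K20me3 in all 4 clusters and H3K36me3 in HOXB. In 3 it was at least 1.5 times shorter, MINA in HOXB, HOXC and HOXD. The other 6 lay between.

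The same rule over consecutive 120-kb regions of the genome gives the background for these counts. HOXB (210 kb) is longer and HOXD (101 kb) shorter than these regions, here and in the log2 comparisons below. Both use only regions with at least 2 kb covered for the same antibody in WT or KO. For H4K20me3, 65.8% of 10748 regions were longer in KO and 23.1% shorter, so longer H4K20me3 was the more common case. For MINA, 10.3% of 6962 regions were longer and 72.2% shorter, so shorter MINA was the common case as well. For H3K36me3, 14.7% of 8315 regions were longer and 14.7% shorter, which makes HOXB 1 of a smaller class. For H3K4me3, 4.8% of 10006 regions were longer and 19.6% shorter, and none of the 4 clusters was either. For H3K9me3, 24.9% of 15336 regions were longer and 51.6% shorter, and no cluster could be read.

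**Figure D1:**
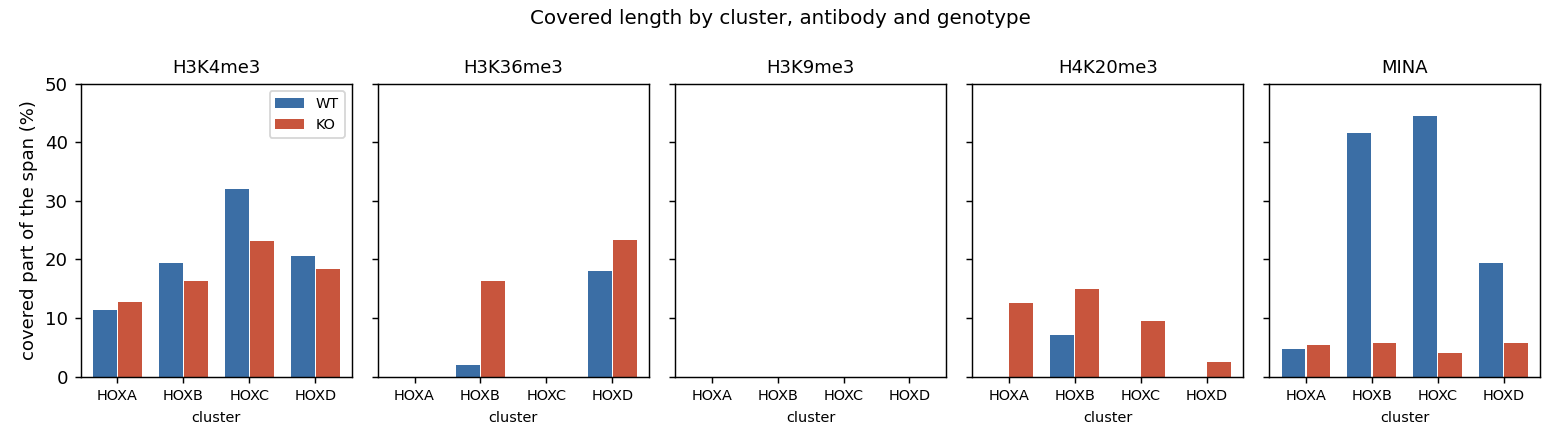
Covered part of each cluster span in percent (y axis), by cluster (x axis), with 1 panel per antibody and 1 bar per library, blue for WT and red for KO. MINA covered 41.5% of HOXB and 44.5% of HOXC in WT and 5.81% and 4% in KO, and the H3K9me3 panel is empty.

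H3K4me3 covered 113.6 kb of the 551 kb in WT and 96 kb in KO, a KO over WT ratio of 0.845, and the ratio of the whole lists was 0.844. In HOXA it covered 13.6 kb in WT and 15.2 kb in KO (ratio 1.12). In HOXB it covered 40.8 kb and 34.4 kb (0.843), in HOXC 38.4 kb and 27.8 kb (0.724), and in HOXD 20.8 kb and 18.6 kb (0.894). HOXA was thus the cluster where KO was higher. Divided by the ratio of its chromosome, HOXB stood at 1.05 and HOXD at 1.12, so the lower H3K4me3 of these 2 clusters was no lower than that of their chromosomes. Few regions of the genome carry more: only 2.15% of 120-kb regions had at least as much H3K4me3 as HOXC in WT, while 12.9% had at least as much as HOXA.

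The intervals themselves were shared. Of 20 WT intervals, 18 (90%, 95% Wilson interval 69.9% to 97.2%, counting error only) overlapped a KO interval, beside 85.1% of all WT intervals. Of 20 KO intervals, 19 overlapped a WT interval. By length, 74.6% of WT H3K4me3 in the clusters lay on KO H3K4me3, beside 77.2% for the whole list. This share ran from 64.6% in HOXC to 88.2% in HOXA. The 2 WT intervals with no KO partner were chr12:54370401-54374000 in HOXC (3.6 kb) and chr17:46749001-46749600 in HOXB (0.6 kb). The KO interval with no WT partner was chr17:46754801-46756200 in HOXB (1.4 kb).

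Within shared places more KO intervals were narrower than wider, as in the whole lists. Of 17 intervals that met 1 to 1, 10 were narrower in KO, 5 wider and 2 equal, with a median change of -0.4 kb. Over the whole lists 65.6% of 15690 such pairs were narrower, beside 58.8% here, and the median change was -0.6 kb. In HOXD 4 of 4 were narrower and in HOXB 4 of 6, in HOXC 1 of 3 was narrower and 2 were equal, and in HOXA 3 of 4 were wider. The narrower one in HOXA was its widest interval, toward HOXA13, with 7.4 kb in WT (chr7:27237601-27245000) and 6.4 kb in KO (chr7:27237001-27243400).

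The greatest narrowing of a pair lay in HOXC, toward the high-coordinate end of the span. The interval there was 11.4 kb wide in WT (chr12:54423801-54435200) and 5.8 kb wide in KO (chr12:54425001-54430800). An 11.2-kb WT interval near the middle of HOXC (chr12:54383001-54394200) was met by 2 KO intervals of 5.2 kb and 4.6 kb. Next to it a 4.6-kb interval (chr12:54397601-54402200) had the same start and end in both genotypes, so the narrowing did not run through the whole cluster.

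In HOXB the narrowing was uneven too. The widest H3K4me3 interval of the cluster hardly differed, with 12.4 kb in WT (chr17:46695201-46707600) and 11.8 kb in KO (chr17:46695201-46707000). Nearer to HOXB1, a 7.0-kb interval (chr17:46659201-46666200) was 3.8 kb in KO, and a 6.6-kb interval (chr17:46667401-46674000) was 3.0 kb in KO. Those 2 overlapped WT MINA and KO H4K20me3 intervals, and so did the 12.4-kb interval. Another narrower one, 5.2 kb in WT (chr17:46679401-46684600) and 4.4 kb in KO, overlapped no other list. The interval toward HOXB13 went the other way, from 4.2 kb (chr17:46799401-46803600) to 4.8 kb (chr17:46799601-46804400).

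HOXD, whose narrowing was the most even, held 4 intervals in each genotype. The interval toward HOXD13 was 5.0 kb in WT (chr2:176959201-176964200) and 4.8 kb in KO (chr2:176960801-176965600), shifted into the cluster. The interval toward HOXD1 was 7.2 kb in WT (chr2:177049201-177056400) and 6.4 kb in KO (chr2:177050001-177056400), and it runs over the end of the span. The other pairs were 2.4 kb and 2.0 kb, and 6.6 kb and 5.8 kb.

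**Figure D2:**
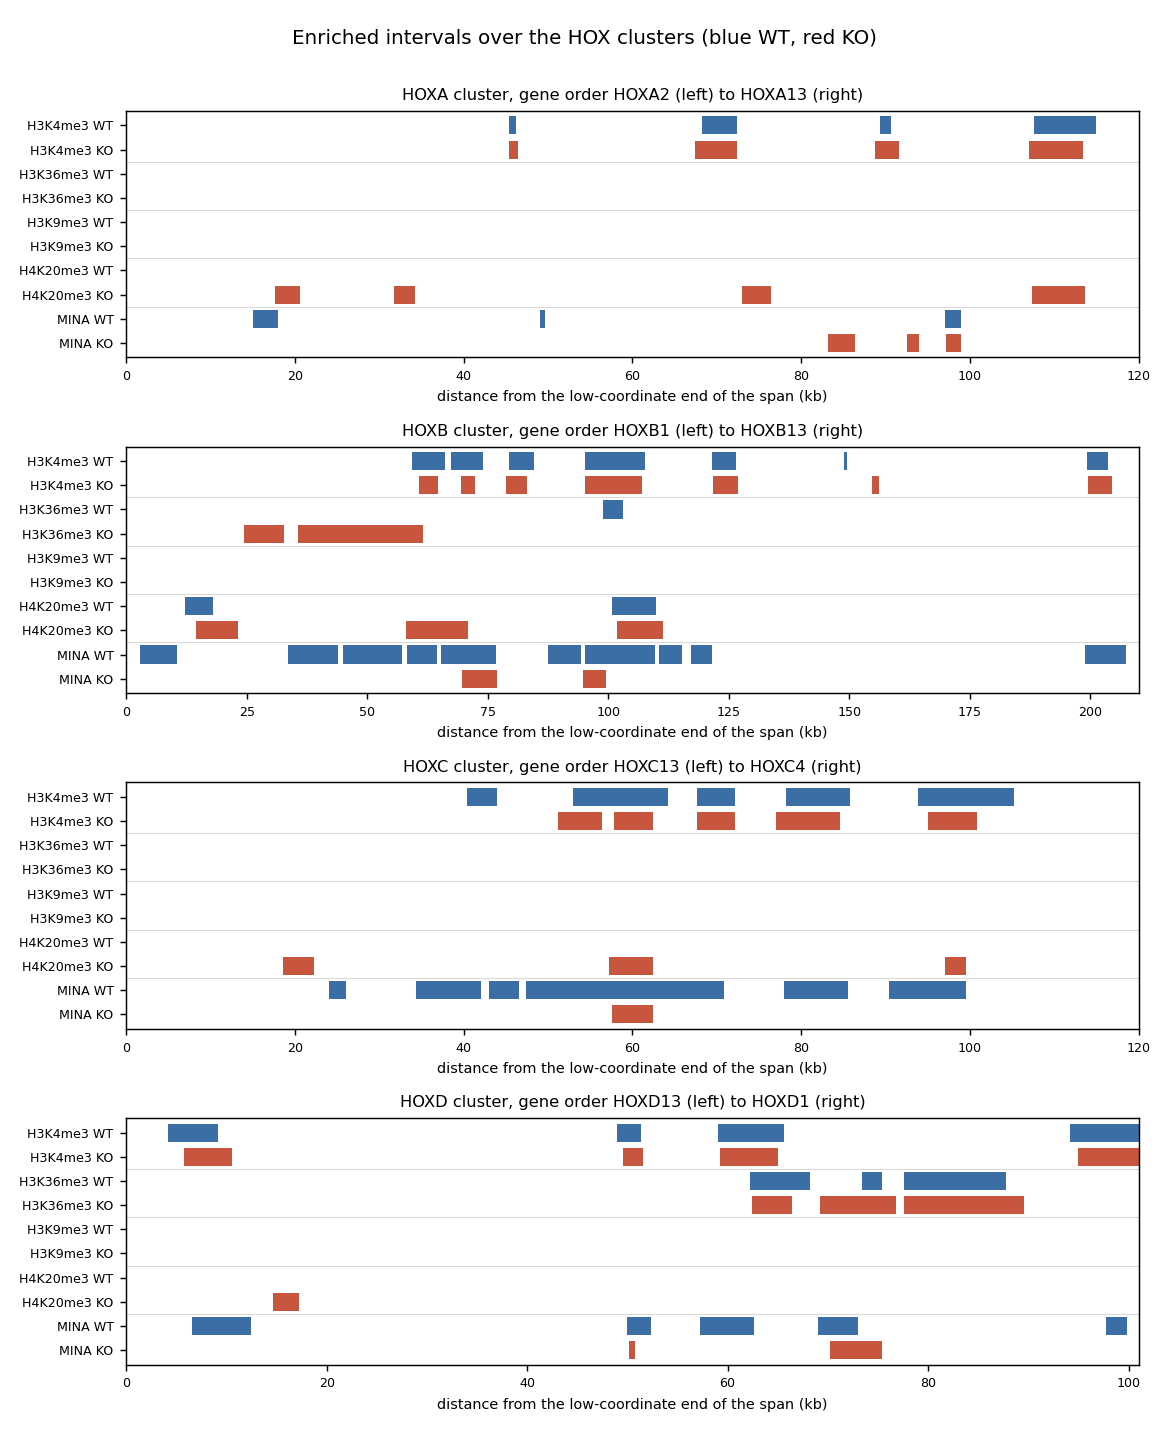
Position of every interval in kb from the low-coordinate end of each cluster (x axis), 1 row per antibody and genotype (y axis), blue for WT and red for KO. The H3K4me3 rows of WT and KO line up, HOXA has none from 0 to 45.4 kb, and the MINA rows of HOXB and HOXC are nearly empty in KO.

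H3K4me3 was unevenly spread within each cluster. In HOXA 94.1% of the WT length and 93.4% of the KO length lay on the HOXA13 side of the midpoint. In HOXB 29.9% in WT and 39.0% in KO lay on the HOXB13 side, in HOXC 27.6% and 26.6% on the HOXC13 side, and in HOXD 31.3% and 30.6% on the HOXD13 side. HOXA was therefore the only cluster of the 4 with most of its H3K4me3 on the high-numbered side of the midpoint, in both genotypes. The midpoint divides a span by length and not by the number of genes. In HOXB the widest H3K4me3 interval ran across it in both genotypes.

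Long stretches without H3K4me3 were kept as well. The first 45.4 kb of HOXA, on the HOXA2 side, held none in WT or KO. In HOXB the longest empty stretch was on the HOXB1 side, with 59.2 kb in WT and 60.8 kb in KO. In HOXC it was on the HOXC13 side, with 40.4 kb in WT and 51.2 kb in KO, longer in KO because the 3.6-kb WT interval there had no partner. In HOXD it lay inside the cluster, between the interval toward HOXD13 and the next, with 39.8 kb in WT and 39 kb in KO.

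H3K36me3, the mark of transcribed gene bodies, was listed at 0 in HOXA and HOXC in both genotypes. Among 120-kb regions with at least as much WT H3K4me3 as HOXC, 6 of 459 (1.31%) had no H3K36me3 in WT or KO, so nearly all such regions carried it. For the H3K4me3 level of HOXA it was 158 of 2751 (5.74%). In HOXD the mark covered 18.2 kb in WT and 23.6 kb in KO (ratio 1.30), of which 16.2 kb were shared. Its widest interval started at the same base in both, with 10.2 kb in WT (chr2:177032601-177042800) and 12 kb in KO (chr2:177032601-177044600).

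HOXB differed most. H3K36me3 covered 4.2 kb there in WT and 34.4 kb in KO, a ratio of 8.19, and the lists did not share a single 200-bp window. The WT interval (chr17:46698801-46703000) lay inside the widest H3K4me3 interval of the cluster. The KO intervals lay nearer to HOXB1, at chr17:46624401-46632800 (8.4 kb) and chr17:46635601-46661600 (26 kb). The second of them ended 0.8 kb inside the KO H3K4me3 interval nearest to HOXB1.

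Such a lack of sharing was rare among regions with this mark in both genotypes. Of 5286 consecutive 210-kb regions with at least 2 kb of H3K36me3 in WT and in KO, 21 (0.397%) shared no window. These regions were not matched to HOXB on covered length. In WT HOXB held 1 interval of 4.2 kb, where the median width of all WT intervals of this mark was 11.4 kb. On the log2 scale with 1 kb added to both lengths, HOXB stood at 2.77. Of 120-kb regions with at least 2 kb of the mark in WT or KO, shorter than its 210 kb, 96.1% were at or below it. HOXD stood at 0.36, with 81.0% at or below. Over all 4 clusters the ratio was 2.59 (22.4 kb in WT, 58 kb in KO) beside 1.00 for the whole lists, and it was 1.30 without HOXB and 8.19 without HOXD.

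H3K36me3 lay on one side of both spans that held it. In HOXB and HOXD 100% of its length in each genotype was on the side of the midpoint toward HOXB1 or HOXD1, where the WT interval of HOXB ended at 103 kb of 210 kb, next to the midpoint. Of the 41.8 kb found in KO only, 27.8 kb (66.5%) lay under MINA intervals of WT, beside 15.6% of all KO-only H3K36me3 length. Most of that is the 26-kb interval of HOXB, which runs along a row of WT MINA intervals.

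H3K9me3, a mark of constitutive heterochromatin, had 0 intervals in all 4 clusters and both genotypes. Of 21327 regions of 120 kb with any interval, 4869 (22.8%) had none in either genotype. Among regions with at least as much WT H3K4me3 as each cluster, compared at that cluster's length, the shares were 43.5% for HOXA, 28.3% for HOXB, 49.9% for HOXC and 50.9% for HOXD. At the 120-kb length of HOXA and HOXC, regions rich in H3K4me3 thus lacked H3K9me3 more often than all regions. The nearest H3K9me3 interval outside a span was 34.2 kb from HOXC in WT and 795.2 kb in KO. It was 80.2 kb and 59 kb from HOXA, 66.4 kb and 65.4 kb from HOXB, and 290.4 kb and 292.2 kb from HOXD.

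H4K20me3, which elsewhere in these lists often coincides with H3K9me3, was listed in HOXB alone in WT and in all 4 clusters in KO. In HOXA it covered 0 kb in WT and 15 kb in KO, in HOXC 0 kb and 11.4 kb, and in HOXD 0 kb and 2.6 kb. In HOXB it covered 14.8 kb and 31.4 kb (ratio 2.12), which is 0.953 when divided by the ratio of the whole lists. Over all 4 clusters it covered 14.8 kb in 2 intervals in WT and 60.4 kb in 11 intervals in KO, a ratio of 4.08 beside 2.23 for the whole lists. With each span widened by 20 kb at both ends the ratio was 2.34, and that of HOXB was 1.34.

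This difference was of a common kind. On the log2 scale with 1 kb added, HOXA stood at 4. Of 120-kb regions with at least 2 kb of H4K20me3 in WT or KO, 86.4% were at or below it. HOXC stood at 3.63 (82.2%), HOXD at 1.85 (49.4%) and HOXB at 1.04 (37.8%), while the median region stood at 1.93. Of regions with at least 2 kb of KO H4K20me3, 64.1% had none in WT. Both WT intervals of HOXB had a KO partner, and 2 of 11 KO intervals (18.2%, Wilson 5.14% to 47.7%) had a WT partner, beside 19.6% of all KO intervals.

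The 4 KO intervals of HOXA lay at chr7:27147601-27150600 (3.0 kb), chr7:27161801-27164200 (2.4 kb), chr7:27203001-27206400 (3.4 kb) and chr7:27237401-27243600 (6.2 kb). The last covered most of the H3K4me3 interval toward HOXA13. The 3 of HOXC lay at chr12:54348601-54352200 (3.6 kb), chr12:54387201-54392400 (5.2 kb) and chr12:54427001-54429600 (2.6 kb), and the last 2 of these lay within WT H3K4me3 intervals. The 1 of HOXD, at chr2:176969601-176972200 (2.6 kb), lay where no other list held an interval. In HOXB the KO interval with no WT partner was chr17:46658001-46671000 (13 kb), which overlapped the 7.0-kb and the 6.6-kb WT H3K4me3 intervals described above. The widest WT interval of HOXB was chr17:46700801-46709800 (9 kb), met by a KO interval of 9.6 kb.

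KO H4K20me3 in the clusters lay in large part on H3K4me3 and never on H3K9me3. Of its 60.4 kb, 30.2 kb (50%) lay on WT H3K4me3 and 39.4% on KO H3K4me3, beside 11.3% and 9.90% for the whole KO list. None lay on H3K9me3, beside 57.2% of the whole list on WT H3K9me3. Regions elsewhere that lacked H3K9me3 gave like values. In 120-kb regions with no H3K9me3 in either genotype, 46.7% of KO H4K20me3 lay on WT H3K4me3 and 43.7% on KO H3K4me3. The clusters were thus near the level of such regions.

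MINA, the antibody to mdig, gave some of the densest WT coverage in HOXB and HOXC. In HOXB it covered 87.2 kb in WT and 12.2 kb in KO (ratio 0.140), and in HOXC 53.4 kb and 4.8 kb (0.0899). In HOXD it covered 19.6 kb and 5.8 kb (0.296), a ratio that turned to 1.46 when divided by that of chromosome 2. In HOXA it covered 5.6 kb and 6.4 kb (1.14), which was 0.64 with intervals under 2 kb left out and 3.83 when divided by the ratio of the whole lists. Only 2.80% of 210-kb regions had at least as much WT MINA as HOXB, and 2.96% of 120-kb regions at least as much as HOXC. KO cells make no mdig per the labels, and what gave rise to the KO intervals of this antibody was not tested.

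Over the 4 clusters MINA covered 165.8 kb in 24 intervals in WT and 29.2 kb in 8 intervals in KO, a ratio of 0.176 beside 0.298 for the whole lists. Of the WT intervals 6 (25%, Wilson 12% to 44.9%) had a KO partner, beside 38.8% of all WT intervals. The log2 values with 1 kb added were -3.23 in HOXC, -2.74 in HOXB, -1.60 in HOXD and 0.17 in HOXA. The median 120-kb region with at least 2 kb of MINA in WT or KO stood at -1.58. Of such regions, 16.4% were at or below HOXC, 23.4% at or below HOXB, 49.8% at or below HOXD and 85.5% at or below HOXA. HOXD thus stood near the median region, and HOXA above most regions.

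**Figure D3:**
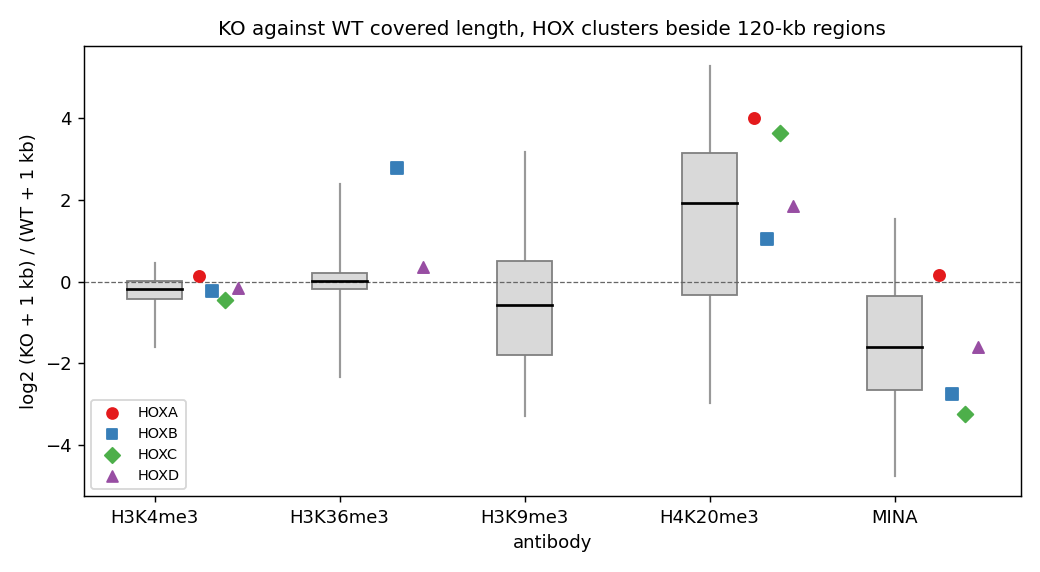
Log2 of KO over WT covered length with 1 kb added to both (y axis) by antibody (x axis). Grey boxes run from the lower to the upper quartile of 120-kb regions with at least 2 kb for that antibody in WT or KO. Black bars are medians and grey lines run from the 5th to the 95th percentile. Coloured points are the clusters, with HOXB H3K36me3 at 2.77 above its grey line and the rest within theirs.

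The widest MINA interval of the clusters was chr12:54377401-54400800 in HOXC, 23.4 kb wide in WT, and 4.45% of all WT MINA intervals were at least as wide. The sole KO interval of HOXC, chr12:54387601-54392400 (4.8 kb), lay inside it. In HOXB the widest WT interval was chr17:46695201-46709600 (14.4 kb), which began at the same base as the widest H3K4me3 interval, and its KO partner was chr17:46694801-46699600 (4.8 kb). The other KO interval of HOXB was chr17:46669601-46677000 (7.4 kb). In HOXB 8 of 10 WT intervals had no KO partner, and in HOXC 5 of 6.

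The WT MINA intervals with no KO partner followed one another along both clusters. From the HOXB1 end, those of HOXB were chr17:46602801-46610600 (7.8 kb), chr17:46633601-46644000 (10.4 kb), chr17:46645001-46657200 (12.2 kb), chr17:46658201-46664400 (6.2 kb), chr17:46687401-46694400 (7.0 kb), chr17:46710601-46715200 (4.6 kb), chr17:46717201-46721600 (4.4 kb) and chr17:46798801-46807400 (8.6 kb). The last lay over the H3K4me3 interval toward HOXB13, and 3 of the others ran along the 26-kb KO H3K36me3 interval. Those of HOXC, from the HOXC13 end, were chr12:54354001-54356000 (2.0 kb), chr12:54364401-54372000 (7.6 kb), chr12:54373001-54376600 (3.6 kb), chr12:54408001-54415600 (7.6 kb) and chr12:54420401-54429600 (9.2 kb). All but the first of these 5 overlapped WT H3K4me3.

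In HOXD the widest WT interval, toward HOXD13, was chr2:176961601-176967400 (5.8 kb) with no KO partner. Those at chr2:177012201-177017600 (5.4 kb) and chr2:177052801-177054800 (2.0 kb) had none either. The widest KO interval of HOXD was chr2:177025201-177030400 (5.2 kb), over H3K36me3 in both genotypes. The widest WT interval of HOXA was chr7:27145001-27148000 (3.0 kb), without a KO partner. In HOXA 1 of 3 WT intervals had a KO partner (chr7:27227001-27229000 in WT, chr7:27227201-27229000 in KO). The KO interval chr7:27213201-27216400 (3.2 kb) had no WT partner, and neither had chr7:27222601-27224000 (1.4 kb). HOXA thus held 3 short MINA intervals in each genotype, mostly in different places.

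MINA met H3K4me3 in HOXB, HOXC and HOXD but not in HOXA. In WT 29.4 kb of HOXB, 30.2 kb of HOXC and 9.6 kb of HOXD carried both, and 0 kb of HOXA. In KO 7.2 kb, 4.6 kb and 0.6 kb did, and again 0 kb of HOXA. Of all WT MINA length in the clusters 41.7% lay on WT H3K4me3, beside 49.7% for the whole list. By cluster the share was 0% in HOXA, 33.7% in HOXB, 56.6% in HOXC and 49.0% in HOXD.

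Overlap with H3K36me3 was lower than in the whole WT lists. Of WT MINA length, 2.77% in the clusters lay on WT H3K36me3, beside 38.7% for the whole list. Of H3K4me3 length in WT, 6.69% lay on WT H3K36me3, beside 33.6% for the whole list, and 60.9% lay on WT MINA, beside 49.2%. In WT H3K36me3 covered 22.4 kb of the 551 kb (4.07%), beside 9.24% of the stretches next to the clusters, as long as the cluster on each side. Of 120-kb regions with any interval, 62.9% had none of this mark in WT. In WT 24.7% of 101-kb regions had at least as much as HOXD, and 41.9% of 210-kb regions at least as much as HOXB.

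The surroundings of each cluster had ratios of their own. Within 5 Mb on both sides, the MINA ratio was 1.08 around HOXA, 0.154 around HOXB, 0.182 around HOXC and 0.429 around HOXD. The MINA ratios of HOXA and HOXB were thus close to those of their surroundings. Those of HOXC and HOXD were lower than their surroundings, at 0.0899 and 0.296. For H3K4me3 the surroundings gave 1.09, 0.810, 0.821 and 0.864, so the longer H3K4me3 of HOXA lay in a stretch with the same direction. For H4K20me3 they gave 18.9 around HOXA (17 kb in WT, 321.2 kb in KO), 1.09 around HOXB, 0.951 around HOXC and 0.529 around HOXD. HOXC (0 kb in WT, 11.4 kb in KO) and HOXD (0 kb and 2.6 kb) thus went the other way from their surroundings.

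For H3K36me3 the surroundings of HOXB gave 0.960, beside 8.19 in the cluster, and those of HOXD gave 0.814, beside 1.30. The part of such regional ratios in the values of the clusters was not tested.

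**Figure D4:**
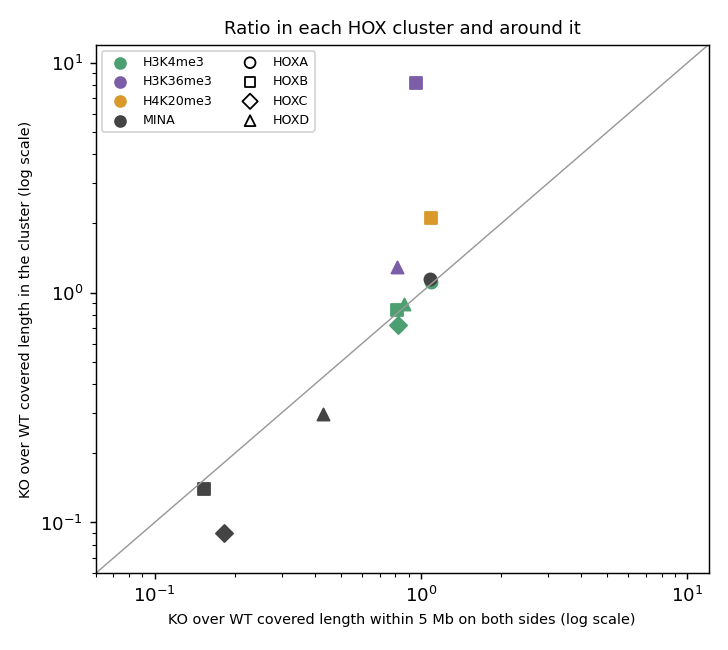
KO over WT covered length in each cluster (y axis, log scale) against the same ratio within 5 Mb on both sides (x axis, log scale), coloured by antibody and shaped by cluster, for pairs with coverage in both genotypes. Points on the grey line have equal ratios, and HOXB H3K36me3 lies highest at 8.19 against 0.960.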

How the data were processed

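ChIP-seq interval lists of MDA-MB-231 cells were used, 10 ChIP libraries of 5 antibodies in WT and KO cells. The authors deposited, per the file headers, 1 interval list per library and a merged list (not used), each with chromosome, start and end only and no other value such as a score, height or p-value. The submitters' processing notes name BWA, SICER version 1.1 and hg19. Starts and ends lie on a 200-bp grid with gaps of at least 800 bp. Depth, scaling and how the input entered the calls are unknown. More reads or better enrichment give more and wider intervals. Covered length, shared length and overlap (at least 1 bp) were computed in Python 3.11.15 with numpy 2.4.6 and scipy 1.17.1. Background was all consecutive regions of the genome with any interval, 120 kb long unless a length is given. For the 1.5-fold calls and the log2 values, it was only those with at least 2 kb for the same antibody in WT or KO. Samples were grouped by antibody and genotype from the labels. The counting was tested on simulated data. With 1 library per antibody and genotype no test was run.

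The members and lists were chosen with earlier results of these data known. Intervals are named when widest of their list in a cluster, or at least 2 kb and in 1 genotype only. Others named were chosen after their values were seen. Readouts per gene and a planned list of HOX regulators needed an hg19 annotation, which was not used here. Alternatives were widened or shortened spans, merged intervals, intervals under 2 kb left out, whole interval widths, a fold of 2, and ratios divided by those of the whole list or chromosome.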

Additional observations from a re-analysis of the deposited data

How the results depend on the processing

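Scaling turned the direction of 2 called values: the H4K20me3 ratio of HOXB was 0.953 when divided by that of the whole list, and the MINA ratio of HOXD was 1.46 when divided by that of chromosome 2. A value under another setting stayed when it was within 1.5 times and, for ratios, on the same side of the 1.5-fold threshold. Of the totals over the 4 clusters and the counts of pairs, 64 values stayed and 9 moved. Of single cluster values 71 stayed, 15 moved and the 2 above turned. Uncalled ratios also crossed 1 under scaling. H3K4me3 reached 1.05 in HOXB, and in HOXD 1.06 by the whole list, 1.12 by the chromosome and 1.035 by the 5-Mb ratio, and its total reached 1.00 and 1.03 by the whole list and the chromosome. The H3K36me3 total was 1.30 without HOXB and 8.19 without HOXD, so it rests on HOXB. The H4K20me3 total was 2.34 with each span widened by 20 kb and 1.83 when divided by the ratio of the whole list. The MINA total was 0.590 when divided by the ratio of the whole list, 0.770 by that of the same chromosome and 0.777 by that within 5 Mb on both sides. The longer pairs numbered 3 without HOXB, and the shorter pairs 1 with the 5-Mb scaling, where MINA stood at 0.910 in HOXB, 0.494 in HOXC and 0.689 in HOXD. With that scaling the longer pairs numbered 6, with H3K36me3 in HOXD at 1.59 among them. The MINA ratio of HOXA was 0.64 with intervals under 2 kb left out and 1.71 with intervals within 5 kb merged, and 3.83 and 1.91 divided by the ratios of the whole list and of chromosome 7, which would count it among the longer pairs in place of H4K20me3 in HOXB. The H4K20me3 ratio of HOXB was 1.34 with widened spans. H3K9me3 gave no ratio where both lengths were 0. The 5-Mb scaling and leaving out a cluster were chosen after seeing the data. No paired analysis was possible because each antibody and genotype has 1 library. Depth is unknown, so what was not detectable cannot be stated.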

Other observations

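The stretches beside the clusters, as long as the cluster on each side, carried other mixtures of marks. Over all 4 pairs of such stretches (1102 kb) H3K4me3 covered 5.12% in WT and 4.43% in KO, and MINA covered 3.68% and 1.03%. H3K36me3 covered 9.24% and 9.49% there. H4K20me3 covered 64.8 kb in WT and 48.2 kb in KO, where the clusters themselves held 14.8 kb and 60.4 kb. That lower KO total came from beside HOXC (18.4 kb and 2.4 kb) and HOXB (45.4 kb and 40.6 kb). Beside HOXA the KO length was higher, as in the cluster (1 kb and 5.2 kb), and beside HOXD both were 0. H3K9me3 covered 25.4 kb and 16.6 kb over all 4 pairs, where the clusters held 0.

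Beside HOXC, KO held less than WT in every list, and H3K36me3 differed least. There H3K9me3 covered 13 kb in WT and 0 kb in KO, H4K20me3 18.4 kb and 2.4 kb, and H3K4me3 3.4 kb and 0 kb, while H3K36me3 covered 23.8 kb and 23.2 kb.

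The part of the spans in any of the 5 lists went from 51.3% to 26.7% in HOXC and from 16% to 25.5% in HOXA, WT first. In HOXB it was 49.8% and 43.3%, and in HOXD 45.1% and 41.8%.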
